A study of Mus musculus with 24 samples.

Results

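The 10 genes described here are the toll-like receptors that sense nucleic acids inside endosomes (Tlr3, Tlr7, Tlr8, Tlr9 and Tlr13), the chaperone Unc93b1, the adaptor Myd88, the transcription factor Irf5, the endolysosomal transporter Slc15a3, and the receptor-like protein Cd180. They were chosen by symbol, as the sensing pathway whose ligands phospholipase D4 (PLD4) degrades. All 10 symbols were among the 23955 in the table of gene counts, and all 10 were among the 15080 genes tested. Tlr8 reached the count filter through the other groups, since it had 7 counts in all over the 4 wild-type control kidneys.

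RNA was sequenced from mouse kidney in 24 libraries, in 6 groups of 4. The groups were wild type (WT, labelled PLD4+/+) and knockout (KO, labelled PLD4-/-), each sampled as control kidney (day 0) and after unilateral ureteral obstruction lasting 5 or 10 days. In that operation 1 ureter is tied and the kidney behind it becomes inflamed and scarred. The labels used here do not give the animals' age, sex, strain, the Pld4 allele or what a replicate number stands for, so p-values measure only the spread between these libraries, some of which may be technical.

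Endosomal toll-like receptors bind RNA or DNA that reaches the endosome from microbes or dying cells. Tlr3 binds double-stranded RNA, Tlr7 and Tlr8 bind single-stranded RNA or its breakdown products, Tlr9 binds DNA with unmethylated CpG, and Tlr13, a receptor of mice, binds bacterial ribosomal RNA. Unc93b1 carries these receptors from the endoplasmic reticulum to endosomes. Myd88 passes on the signal of all of them except Tlr3, which uses Ticam1 (TRIF), and Irf5 is a transcription factor activated downstream of Myd88 that drives inflammatory cytokine genes. Slc15a3 moves histidine and small peptides across the endolysosomal membrane. Cd180 is the exception in place: it sits at the cell surface of B cells, macrophages and dendritic cells together with Ly86 (MD-1). PLD4 is an endolysosomal exonuclease that shortens single-stranded nucleic acids from their 5′ end, and in a kidney most of these genes are best known from resident and infiltrating leukocytes.

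The stretches upstream of 4 of the genes are shown because of the letters they hold. In Tlr8, Tlr9 and Tlr13 these are the core of the site of the myeloid factor PU.1. In Myd88, the shared adaptor, they are an element of interferon regulatory factors. A link of these letters to expression was not tested. Cd180, which like Tlr8, Tlr9 and Tlr13 was low in control kidneys and rose after obstruction, held neither, nor did Tlr3 and Irf5. Each is the 250 bases before the RefSeq transcription start in GRCm38.p6, written 5′ to 3′ along the gene, and matches to GAGGAA (the core of the PU.1 site) or GAAANNGAAA (an element bound by interferon regulatory factors) on either strand are in capitals. The windows are chrX:167264330-167264579 on the minus strand for Tlr8, chr9:106222348-106222597 on the plus strand for Tlr9, chrX:106143025-106143274 on the plus strand for Tlr13 and chr9:119340019-119340268 on the minus strand for Myd88.
Tlr8: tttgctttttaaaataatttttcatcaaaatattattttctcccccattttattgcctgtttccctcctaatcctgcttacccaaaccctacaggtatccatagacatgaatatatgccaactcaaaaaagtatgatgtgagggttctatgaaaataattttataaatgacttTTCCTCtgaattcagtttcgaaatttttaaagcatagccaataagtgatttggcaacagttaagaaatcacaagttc
Tlr9: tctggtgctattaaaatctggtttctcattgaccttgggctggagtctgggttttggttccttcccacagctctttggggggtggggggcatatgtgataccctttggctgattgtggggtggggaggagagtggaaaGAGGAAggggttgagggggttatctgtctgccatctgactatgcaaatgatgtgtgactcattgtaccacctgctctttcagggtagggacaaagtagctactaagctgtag
Tlr13: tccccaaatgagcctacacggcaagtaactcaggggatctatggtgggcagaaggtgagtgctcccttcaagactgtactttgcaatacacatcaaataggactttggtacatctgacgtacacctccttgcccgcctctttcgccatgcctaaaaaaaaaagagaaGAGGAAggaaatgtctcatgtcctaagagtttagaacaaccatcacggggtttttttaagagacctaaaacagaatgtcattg
Myd88: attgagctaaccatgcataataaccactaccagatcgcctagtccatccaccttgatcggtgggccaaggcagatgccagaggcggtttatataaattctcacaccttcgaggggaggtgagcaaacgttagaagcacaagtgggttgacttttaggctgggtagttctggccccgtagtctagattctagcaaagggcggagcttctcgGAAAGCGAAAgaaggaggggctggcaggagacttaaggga
GAGGAA was in 3 of the 7 genes with an entry in the RefSeq table (Tlr7, Unc93b1 and Slc15a3 had none), and in 23.3% of all 32851 windows of that length. The match began 112 bases before the start in Tlr9 and 83 in Tlr13, and in Tlr8, where it lies on the other strand and so reads TTCCTC, 77 bases before it. GAAANNGAAA was in 1 of the 7, Myd88, beginning 40 bases before the start, and in 2.98% of all windows. Both motifs were picked after the sequences had been seen, and a match is a description of the letters and not of binding. For Tlr13, unlike the other 6, the bases just after the listed start were not found in an annotated transcript of the gene, so its start and the distance from it are less certain.

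Several features of the libraries bear on what follows. Total counts ran from 9800888 to 22542866. Pld4 transcript was still present in the libraries labelled KO. At day 0 it did not separate the labels, at 5.10 to 8.25 CPM (counts relative to the scaled library total) in WT and 6.70 to 12.6 CPM in KO (log2 difference 0.50 ± 0.29, adjusted p = 0.438 in edgeR's quasi-likelihood test). It was 46.6 to 50.9 against 13.4 to 32.6 CPM at day 5 and 54.6 to 117 against 24.3 to 50.3 CPM at day 10, so KO below means the libraries labelled KO. One of the day 0 libraries stands apart in sex-linked transcripts: KO day 0 replicate 4 had 11271 counts of Xist and 5 of Ddx3y, whereas the other 23 libraries had at most 8 of Xist and at least 787 of Ddx3y. WT day 10 replicates 2 and 3 stand apart in leukocyte content. Their summed neutrophil markers (7 genes) were 4111 and 6665 CPM, against at most 27.4 CPM in the other 22 libraries, and their summed macrophage markers (14 genes) were 5795 and 9003 CPM, against 1730 and 1630 CPM in WT day 10 replicates 1 and 4. The calls among the 10 genes that rest on these libraries are given with and without them.

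**Figure D1:**
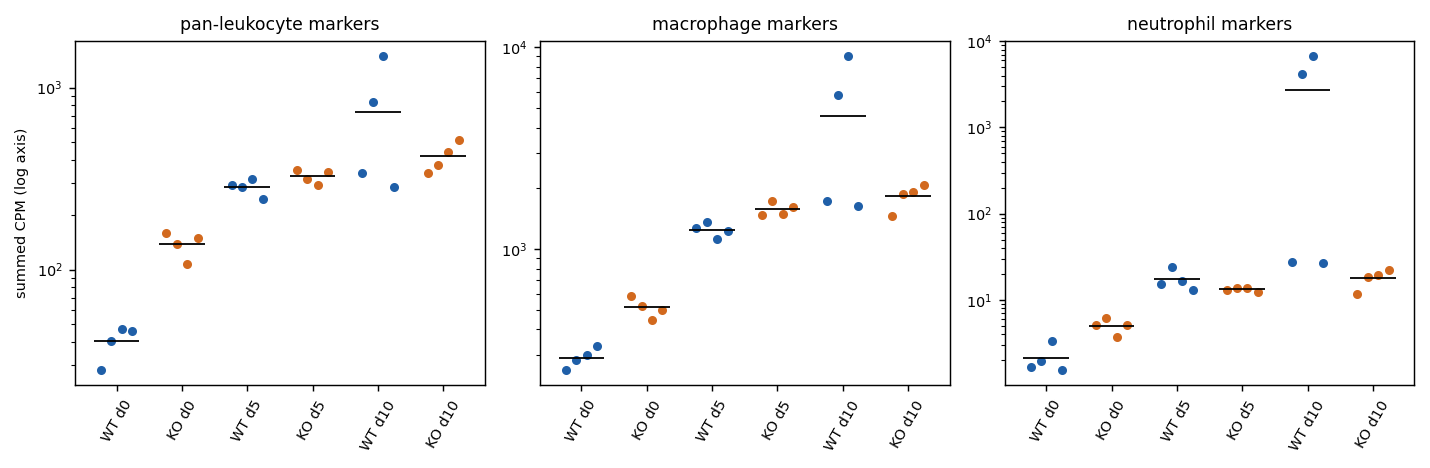
Summed CPM of pan-leukocyte markers (4 genes), macrophage markers (14 genes) and neutrophil markers (7 genes) in each of the 24 libraries, by group, on log axes, with WT in blue and KO in orange and bars at the group means. The pan-leukocyte sum was 28.2 to 47.2 CPM in WT and 108 to 159 CPM in KO at day 0, and 2 WT day 10 libraries lie far above the other 2.

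The genes differ widely in level. Per transcript length, in the authors' FPKM (fragments per transcript length and library size), the WT day 0 kidney held mostly the adaptors and the chaperone: Irf5 at 6.70 ± 0.97, Myd88 at 6.41 ± 0.49 and Unc93b1 at 5.25 ± 0.36 (mean ± SD, n = 4). Irf5 and Myd88 overlapped between libraries, and both lay above Unc93b1. Tlr3 followed at 2.10 ± 0.34 FPKM, clear of its neighbours on both sides. Slc15a3 (0.474), Cd180 (0.293), Tlr7 (0.199), Tlr13 (0.174) and Tlr9 (0.120 FPKM) formed a run in which each overlapped the next, and Tlr8 was lowest at 0.0257 ± 0.0257 FPKM.

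The order changed with genotype and with obstruction. In KO day 0 kidneys Unc93b1 came first at 12.1 ± 1.7 FPKM, above Myd88 at 8.21 ± 0.54, Irf5 at 5.74 ± 0.26 and Tlr3 at 3.34 ± 0.58 FPKM, with no overlap between any of these neighbours. Unc93b1 was also first in all 4 obstructed groups, at 43.9 ± 5.5 in WT and 54.3 ± 4.5 FPKM in KO at day 5, and 75.9 ± 34.0 and 61.9 ± 6.1 FPKM at day 10. Among the toll-like receptors Tlr3 had the highest mean in every group except WT day 10. There Tlr13 (13.1 ± 11.7 FPKM) and Tlr7 (5.88 ± 2.84) had higher means than Tlr3 (5.50 ± 0.65) and all 3 overlapped. At WT day 5 Tlr3 (4.215 to 4.878 FPKM) overlapped Tlr7 (3.243 to 4.563 FPKM). Tlr8 or Tlr9 was the lowest of the 10 in each group.

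**Figure D2:**
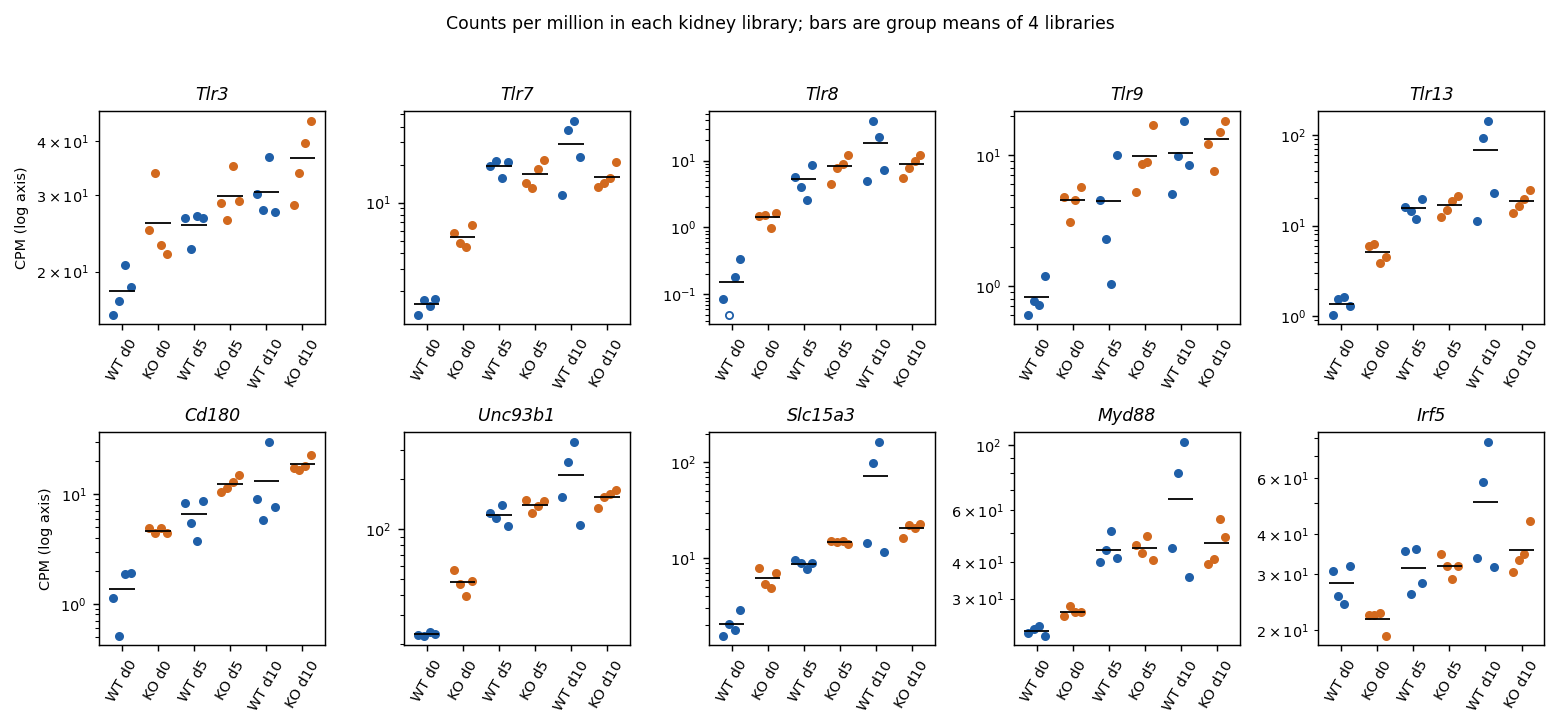
CPM of each of the 10 genes in each library, on log axes, by group, with WT in blue, KO in orange and bars at the group means of 4 libraries; the open circle marks a Tlr8 count of 0. At day 0 the KO libraries lie above the WT libraries for 9 genes and below them for Irf5, and WT day 10 replicates 2 and 3 are the high pair in most panels.

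The first comparison is of the genotype labels in control kidneys. In control kidneys 5 of the 10 genes were higher in KO than in WT (adjusted p under 0.05 in edgeR's quasi-likelihood test over all genes tested): Tlr7, Tlr8, Tlr9, Unc93b1 and Cd180. Over all genes tested 3.65% were called higher and 0.531% lower. The median log2 difference of the 10 was 1.69, beside 0.01 for all genes. For 9 of the 10 every KO library lay above every WT library (10.5% of all genes did so), and for Irf5 every KO library lay below (9.1% of all genes).

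Tlr7 was at 1.30, 1.70, 1.53 and 1.72 CPM in the 4 WT day 0 libraries and at 5.75, 4.77, 4.42 and 6.63 CPM in the KO libraries. The lowest KO library was thus above the highest WT library by a wide margin, and the log2 difference was 1.79 ± 0.33 (SE; adjusted p = 0.00288). Tlr8 had 1, 0, 2 and 4 counts in WT, or 0.0865, 0, 0.179 and 0.344 CPM, and 1.46, 1.55, 0.990 and 1.64 CPM in KO. All 4 KO libraries held Tlr8 above the WT level, with a fitted log2 difference of 3.14 ± 0.86 (adjusted p = 0.0385) whose size rests on very few WT counts. Tlr9 was at 0.605, 0.765, 0.718 and 1.20 CPM in WT and 4.81, 3.10, 4.57 and 5.69 CPM in KO, a log2 difference of 2.46 ± 0.60 (adjusted p = 0.0188). The 2 groups did not overlap.

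Tlr13 showed a like separation without passing the threshold. It was at 1.04, 1.53, 1.61 and 1.29 CPM in WT and 5.93, 6.21, 3.88 and 4.44 CPM in KO (log2 difference 1.89 ± 0.59, adjusted p = 0.0805). Tlr3, the receptor that does not use Myd88, differed least among the receptors, at 15.9, 17.1, 20.7 and 18.4 CPM in WT and 24.9, 33.8, 23.0 and 21.9 CPM in KO. That is a log2 difference of 0.52 ± 0.15 (adjusted p = 0.059), again with no overlap.

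Of the proteins that carry or accompany the receptors, the chaperone Unc93b1 was at 22.8, 22.5, 23.9 and 23.0 CPM in WT and 56.7, 46.3, 39.2 and 48.6 CPM in KO. The WT libraries were very close to each other and all KO libraries were well above them, with a log2 difference of 1.05 ± 0.23 (adjusted p = 0.00861). The transporter Slc15a3 was at 1.56, 2.04, 1.79 and 2.92 CPM in WT and 7.90, 5.37, 4.87 and 7.02 CPM in KO. Its log2 difference of 1.60 ± 0.60 did not pass (adjusted p = 0.162), though the groups did not overlap. Cd180, at the cell surface, was at 1.12, 0.510, 1.88 and 1.89 CPM in WT and 4.90, 4.42, 4.87 and 4.44 CPM in KO, a log2 difference of 1.78 ± 0.46 (adjusted p = 0.0272).

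The adaptor and the transcription factor did not pass at day 0. Myd88 was at 22.4 to 24.1 CPM in WT and 26.1 to 28.3 CPM in KO (log2 difference 0.22 ± 0.22, adjusted p = 0.711). The lowest KO library was above the highest WT library by a small margin. Irf5 was at 30.7, 25.6, 24.2 and 31.7 CPM in WT and 22.4, 22.3, 22.7 and 19.3 CPM in KO, a log2 difference of -0.37 ± 0.21 (adjusted p = 0.427). The lowest of these, 19.3 CPM, was KO day 0 replicate 4, the library with high Xist. Irf5 overlaps Tnpo3 on the genome, and Slc15a3 overlaps Tmem132a. Whether the counting used strand is not given in the sources used here, so the counts of these 2 genes are uncertain to that extent.

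Leukocyte markers moved with these genes. The counts below stand beside 3.65% of all genes called higher in KO at day 0. The pan-leukocyte sum was 28.2 to 47.2 CPM in WT and 108 to 159 CPM in KO at day 0, and all 4 of its genes were higher in KO. The macrophage sum was 253 to 329 CPM in WT and 448 to 587 CPM in KO (9 of 14 genes higher), the T cell sum 3.66 to 8.16 and 19.5 to 36.1 CPM (6 of 6 tested), the plasmacytoid dendritic cell sum 47.0 to 60.7 and 89.3 to 127 CPM (2 of 5 tested, Siglech and Bst2), and the B cell sum 2.58 to 5.02 and 5.85 to 7.02 CPM (1 of 6 tested, Cd79a). Of these lists no marker was at 0 over a whole group, and the neutrophil sum was at most 6.09 CPM in either group. Siglech was a small part of the plasmacytoid dendritic cell sum, at a mean of 0.0653 CPM in WT and 0.979 CPM in KO. The part of the leukocyte markers in the differences was not tested. In bulk tissue more cells of a type and more RNA per cell cannot be told apart.

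The number of genes called at day 0 depended on which libraries entered the fit. Without KO day 0 replicate 4, the library with high Xist, 2 of the 10 passed, Tlr7 (log2 difference 1.67, adjusted p = 0.0122) and Unc93b1 (1.04, adjusted p = 0.0252), while Tlr8 (3.05), Tlr9 (2.33) and Cd180 (1.80) were of similar size with adjusted p of 0.0963, 0.0562 and 0.058. Without WT day 0 replicate 1 or 2 the same 3 were lost, without WT day 0 replicate 3 Tlr8 and Tlr9, and without KO day 0 replicate 1 or 2 Tlr8 and Cd180. With WT day 10 replicates 2 and 3 out of the shared model 8 of the 10 passed, with Tlr3, Tlr13 (1.90, adjusted p = 0.000151) and Slc15a3 (1.61, adjusted p = 8e-06) added. With all 3 of these libraries left out 8 of the 10 passed as well. Tlr7 and Unc93b1 passed in each of these fits.

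**Figure D3:**
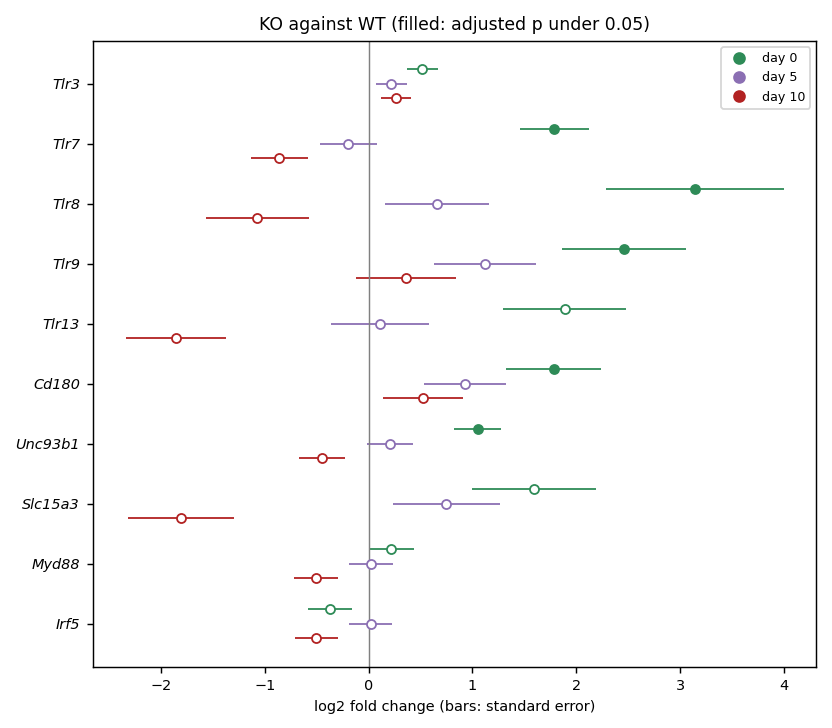
Log2 difference of KO against WT for each gene at day 0 (green), day 5 (purple) and day 10 (red), with standard errors, 4 libraries in each group; filled circles have an adjusted p under 0.05. At day 0 Tlr7, Tlr8, Tlr9, Cd180 and Unc93b1 are filled, and at day 5 and day 10 no circle is.

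Obstruction raised most of the group in WT kidneys. At day 5 against day 0, 9 of 10 genes rose, all but Irf5, where 31% of all genes were called higher. Tlr7 went from at most 1.72 CPM to 19.5, 21.5, 15.8 and 21.0 CPM (log2 change 3.63 ± 0.33, adjusted p = 3.67e-08). Unc93b1 went from at most 23.9 CPM to 125, 117, 140 and 104 CPM (2.40 ± 0.24, adjusted p = 9.09e-08). No obstructed library overlapped the controls for either gene. Leukocyte markers rose in the same WT groups: Ptprc was at 7.87 to 11.4 CPM at day 0, 56.8 to 84.8 at day 5 and 76.9 to 432 at day 10. Csf1r rose less, from 103 to 149 CPM at day 0 to 138 to 173 and 181 to 494 CPM. The part of leukocyte content in the rises of the 10 genes was not tested.

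The log2 changes of Tlr8 (5.04 ± 0.77, from 7 counts over the control group) and Tlr13 (3.50 ± 0.58) were followed by those of Tlr9 (2.45 ± 0.59), Cd180 (2.28 ± 0.45) and Slc15a3 (2.08 ± 0.59). Myd88 (0.92 ± 0.22) and Tlr3 (0.51 ± 0.15) had the smallest of the 9 changes that passed. Irf5 was at 26.0 to 35.9 CPM at day 5 and 24.2 to 31.7 CPM at day 0, a change of 0.16 ± 0.21 (adjusted p = 0.527). The spread at day 5 was uneven: Tlr9 was at 4.58, 2.30, 1.04 and 10.00 CPM, so that replicate 3 overlapped the control range and replicate 4 was the highest. In the same libraries Emr1, which encodes the macrophage surface protein F4/80, was at 39.0, 42.5, 28.6 and 64.2 CPM, also lowest in replicate 3 and highest in replicate 4. Emr1 is 1 of 14 macrophage markers, named after its values were seen, and their sum was 1267, 1359, 1126 and 1222 CPM, with replicate 4 not the highest. As a percent of that sum Tlr9 ran from 0.0921% in replicate 3 to 0.818% in replicate 4. The part of macrophages in the Tlr9 spread was not tested.

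At day 10 in WT all 10 genes were higher than at day 0, where 37.8% of all genes were called higher. The median log2 change was 3.46, beside 0.12 for all genes. Tlr8 (6.85), Tlr13 (5.62) and Slc15a3 (5.11) had the largest log2 changes of the 10, then Tlr7 (4.21, adjusted p = 3.02e-09), Tlr9 (3.64), Cd180 (3.28) and Unc93b1 (3.21, adjusted p = 1.52e-09), then Myd88 (1.49), Irf5 (0.84) and Tlr3 (0.76). Without WT day 10 replicates 2 and 3, 9 of the 10 passed, Irf5 being lost (0.25, adjusted p = 0.185), and the order changed. The changes were then 5.28 for Tlr8, 3.65 for Tlr13, 3.48 for Tlr7, 3.04 for Tlr9, 2.68 for Slc15a3, 2.65 for Cd180, 2.54 for Unc93b1, 0.81 for Myd88 and 0.70 for Tlr3.

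The WT day 10 libraries were of 2 kinds. Tlr13 was at 11.2, 92.7, 145 and 22.8 CPM in replicates 1 to 4, and Slc15a3 at 14.5, 97.6, 164 and 11.7 CPM. Tlr8 was at 4.93, 39.4, 22.4 and 7.25 CPM. For these genes replicates 2 and 3, the libraries rich in neutrophil and macrophage markers, were several times higher than replicates 1 and 4. The macrophage markers differed in range over the WT day 10 libraries. Lyz2 ran from 501.5 to 5457 CPM, but Emr1 from 51.5 to 192 CPM and Cx3cr1 from 44.2 to 93.15 CPM.

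The pair was not high for every gene by the same amount. Tlr7 was at 11.4, 37.4, 44.7 and 23.1 CPM, and Unc93b1 at 157, 253, 338 and 106 CPM. Cd180 was at 9.01, 5.78, 30.2 and 7.67 CPM: replicate 2 was the lowest of the 4 and replicate 3 the highest. In the summed B cell markers the 4 libraries were at 7.25, 6.65, 24.4 and 6.14 CPM, and in the summed T cell markers at 28.4, 24.6, 136 and 30.0 CPM, so replicate 3 but not replicate 2 was high in lymphocyte markers. The part of lymphocytes in the Cd180 spread was not tested. Tlr3 was at 30.2, 27.8, 36.8 and 27.4 CPM and did not single out the pair.

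Between day 5 and day 10 in WT 5 of 10 genes rose further, where 7.86% of all genes were called higher: Slc15a3 (log2 change 3.03 ± 0.54, adjusted p = 0.00429), Tlr13 (2.12 ± 0.49, adjusted p = 0.0107), Tlr8 (1.82 ± 0.51, adjusted p = 0.0279), Unc93b1 (0.81 ± 0.22, adjusted p = 0.0242) and Irf5 (0.68 ± 0.21, adjusted p = 0.0394). Without replicates 2 and 3 of WT day 10 none of the 10 passed in edgeR (1 at an unadjusted p under 0.05) and no gene of all those tested did. Without replicate 3 alone 1 of the 10 passed, Slc15a3, and 2 passed without WT day 10 replicate 2 or WT day 5 replicate 1 or 2, 3 without WT day 5 replicate 3, and 7 without WT day 10 replicate 1 or 4. With the replicate number as a block Irf5 did not pass (0.67, adjusted p = 0.0514). Slc15a3 and Tlr3 were the 2 of the 10 whose day 10 libraries all lay above all day 5 libraries, as did 3.47% of all genes. For Slc15a3 the day 5 libraries were at 9.57, 9.03, 7.67 and 8.96 CPM.

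In KO kidneys obstruction also raised the group. At day 5 against day 0, 7 of 10 genes rose, where 22.4% of all genes were called higher: Tlr8 (log2 change 2.56 ± 0.57), Tlr13 (1.72 ± 0.51), Tlr7 (1.65 ± 0.29), Unc93b1 (1.56 ± 0.23), Cd180 (1.42 ± 0.41), Myd88 (0.72 ± 0.22) and Irf5 (0.55 ± 0.21, adjusted p = 0.0419). Tlr9 (1.11 ± 0.50, adjusted p = 0.0817), Slc15a3 (1.23 ± 0.53, adjusted p = 0.0706) and Tlr3 (0.21 ± 0.15, adjusted p = 0.282) did not pass. Irf5 was lost without KO day 0 replicate 4 (0.50, adjusted p = 0.0954) and without any other 1 of the 8 libraries except KO day 5 replicate 3. In KO Ptprc was at 35.7 to 48.3 CPM at day 0, 70.6 to 91.4 at day 5 and 87.4 to 167 at day 10. Csf1r was at 103 to 144, 162 to 220 and 187 to 206 CPM. The part of leukocyte content in the KO rises was not tested.

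At day 10 all 10 genes were higher than at day 0 in KO, where 28.3% of all genes were called higher. The median log2 change was 1.64, beside 0.04 for all genes. Tlr8 (2.64), Cd180 (2.01), Tlr13 (1.88), Unc93b1 (1.71), Slc15a3 (1.71), Tlr7 (1.57) and Tlr9 (1.54) had larger log2 changes than Myd88 (0.77), Irf5 (0.72) and Tlr3 (0.50), differences between genes that were not tested. All 10 also passed without KO day 0 replicate 4. Both sets of day 10 libraries stood above their own controls for 9 genes, the overlaps being Irf5 in WT (32.4% of all genes stood above) and Tlr3 in KO (29.9%).

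Between day 5 and day 10 in KO none of the 10 passed (0 at an unadjusted p under 0.05 and 0 by DESeq2), where 0.0199% of all genes were called. Unc93b1, for example, was at 150.4, 125, 138 and 148 CPM at day 5 and 135, 156, 162 and 172 CPM at day 10. Cd180 was at 10.5, 11.4, 13.0 and 15.1 CPM at day 5 and 17.5, 16.8, 18.3 and 22.8 CPM at day 10. Its log2 change was 0.59 ± 0.39 (adjusted p = 0.549). Cd180 and Slc15a3 were the 2 of the 10 whose day 10 libraries all lay above the day 5 libraries, as did 4.36% of all genes.

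**Figure D4:**
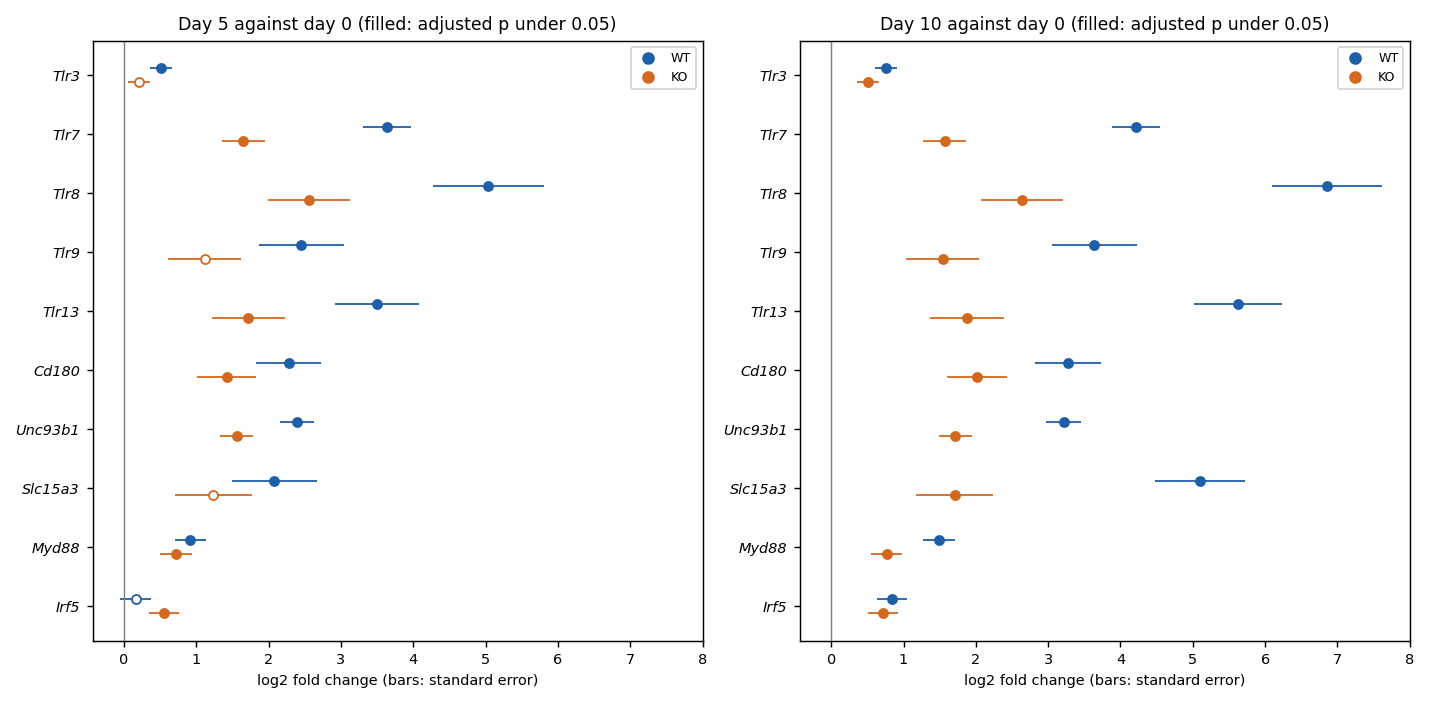
Log2 change from day 0 to day 5 (left) and to day 10 (right) for each gene in WT (blue) and KO (orange), with standard errors, 4 libraries in each group; filled circles have an adjusted p under 0.05. The WT change is the larger for all 10 genes at day 10 and for 9 at day 5, the exception being Irf5.

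Whether the response differed between genotypes was tested as an interaction, which shares its day 0 libraries with the day 0 comparison above. At day 5 the rise of Tlr7 was smaller in KO than in WT, by 1.98 ± 0.43 on the log2 scale (coefficient -1.98, adjusted p = 0.0361), and no other of the 10 passed. Over all genes 0.531% were called lower by this test. Tlr7 at day 5 was at 19.5, 21.5, 15.8 and 21.0 CPM in WT and 14.4, 13.0, 18.5 and 22.0 CPM in KO, ranges that overlap, while its day 0 levels did not. Without KO day 0 replicate 4 the coefficient was -1.86 (adjusted p = 0.0812), and the call held in only 5 of the 16 fits that left out 1 library (KO day 0 replicate 3, WT day 5 replicate 3 or 4, KO day 5 replicate 1 or 4).

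For the change to day 10, 5 of the 10 rose less in KO than in WT, where 3.12% of all genes were called lower: Tlr7 (coefficient -2.65 ± 0.43, adjusted p = 0.00797), Tlr13 (-3.75 ± 0.76, adjusted p = 0.0102), Unc93b1 (-1.50 ± 0.32, adjusted p = 0.0114), Slc15a3 (-3.40 ± 0.79, adjusted p = 0.0184) and Tlr8 (-4.21 ± 0.99, adjusted p = 0.0199). The coefficients of all 10 were negative, with a median of -1.80 beside -0.04 for all genes. Without WT day 10 replicates 2 and 3, 2 of the 10 passed, Tlr7 (-1.91, adjusted p = 0.00906) and Tlr13 (-1.76, adjusted p = 0.0366), and the other 3 were at -0.82 for Unc93b1 (adjusted p = 0.0558), -0.96 for Slc15a3 (adjusted p = 0.113) and -2.63 for Tlr8 (adjusted p = 0.138). With KO day 0 replicate 4 left out as well Tlr7 alone passed (-1.79 ± 0.36, adjusted p = 0.0248). Without WT day 0 replicate 1 Tlr8 and Slc15a3 were lost, and without WT day 0 replicate 2 Tlr8.

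In the fit reported, the genotypes did not separate by the test within the obstructed kidneys. At day 5 none of the 10 differed between KO and WT (2 at an unadjusted p under 0.05, and 0 by DESeq2), where 0.146% of all genes were called in either direction. The test shares its estimate of spread over all 6 groups, WT day 10 included. With WT day 10 replicates 2 and 3 out of the shared model 1 of the 10 passed at day 5. Over all genes 22 were called at day 5, and 1935 without WT day 5 replicate 4. Slc15a3 was at 14.1 to 15.3 CPM in KO and at most 9.57 CPM in WT (log2 difference 0.75 ± 0.51, adjusted p = 0.507). Cd180 was at 10.5 to 15.1 CPM in KO and 3.73 to 8.68 CPM in WT (0.93 ± 0.39, adjusted p = 0.315). These were the 2 of the 10 whose groups did not overlap, both higher in KO, as were 2.73% of all genes.

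Tlr9 at day 5 was at 5.19, 8.50, 8.80 and 17.1 CPM in KO and reached 10.00 CPM in WT replicate 4, a log2 difference of 1.12 ± 0.49 (adjusted p = 0.328). Without WT day 5 replicate 4 the difference was 1.87 (adjusted p = 0.0178). KO day 5 replicate 4, the library highest in Tlr9, was not the highest of its group in the macrophage sum (1482, 1736, 1493 and 1623 CPM), and its Tlr9 share of that sum was 1.05% against 0.3501 to 0.589% in the other 3. Myd88 and Irf5 were nearly level, with differences of 0.02 ± 0.21 each.

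At day 10 none of the 10 differed between KO and WT, where 1.41% of all genes were called in either direction. By the unadjusted p 6 were under 0.05, and DESeq2 called Tlr13 and Slc15a3 lower. Tlr13 was at 13.8, 16.4, 19.6 and 25.0 CPM in KO against the 11.2 to 145 CPM of WT (log2 difference -1.86 ± 0.48, adjusted p = 0.0564), and Slc15a3 at 16.3, 22.4, 20.8 and 22.8 CPM against 11.7 to 164 CPM (-1.80 ± 0.51, adjusted p = 0.0864). All KO values lay inside the WT range for both genes, between the low and the high pair of WT libraries or among the low ones. Without WT replicates 2 and 3 the differences were 0.13 for Tlr13 and 0.64 for Slc15a3. Leaving out a low WT library instead moved the count up: 3 of the 10 were lower in KO without WT day 10 replicate 1 and 6 without replicate 4.

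Cd180, Tlr9 and Tlr3 had positive differences at day 10, none past the threshold. Cd180 was at 17.5, 16.8, 18.3 and 22.8 CPM in KO, above all WT day 10 libraries but replicate 3 (log2 difference 0.52 ± 0.38, adjusted p = 0.545). Without WT day 10 replicate 3 it was 1.32 (adjusted p = 0.0235). Tlr9 was at 12.2, 7.61, 15.1 and 18.3 CPM in KO and 5.03, 9.89, 18.2 and 8.41 CPM in WT (0.36 ± 0.48, adjusted p = 0.735). Tlr3 was at 28.5, 33.8, 39.7 and 44.6 CPM in KO, with a difference of 0.26 ± 0.15 (adjusted p = 0.426).

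The levels were also set against leukocyte markers. The following shares are each gene's CPM as a percent of a summed marker level in the same library, and they carry no test. At day 0 both sums were themselves higher in KO, so a gene that rose less than a sum has a lower share. How many of all genes do not overlap on these scales was not computed. At day 0 Tlr7 was 3.94 ± 0.59% of the pan-leukocyte sum in WT and 3.91 ± 0.45% in KO (SD, n = 4), Tlr13 3.42 ± 0.44% and 3.70 ± 0.62%, and Cd180 3.33 ± 1.38% and 3.45 ± 0.72%. For these 3 the genotypes overlapped on that scale, whereas in CPM they did not. Of the macrophage sum they were higher in KO without overlap. Tlr13 was at 0.473 ± 0.083% in WT and 0.987 ± 0.145% in KO, and Cd180 at 0.459 ± 0.201% and 0.913 ± 0.119%. The macrophage sum had a mean of 290 CPM in WT and 515 CPM in KO, and the pan-leukocyte sum 40.5 and 138 CPM. Not every macrophage marker was called higher in KO, so the share depends on which markers make up most of the sum. Csf1r, for one, had a mean of 120 CPM in WT and 127 CPM in KO at day 0, while C1qa was at 16.5 and 49.9 CPM. Whether RNA per macrophage differed was not tested, here or for the macrophage shares below.

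For Tlr8 and Tlr9 the mean pan-leukocyte share was higher in KO. Tlr8 was 0.358 ± 0.306% of the pan-leukocyte sum in WT day 0 and 1.02 ± 0.11% in KO, and Tlr9 was 2.04 ± 0.45% and 3.33 ± 0.88%, although the Tlr9 ranges overlapped (1.52 to 2.60% and 2.25 to 4.24%). Of the macrophage sum Tlr9 was 0.280 ± 0.059% in WT and 0.892 ± 0.239% in KO, and Tlr7 0.539 ± 0.045% and 1.05 ± 0.19%. Irf5 was 9.76 ± 1.71% of the macrophage sum in WT and 4.25 ± 0.58% in KO, and Myd88 8.10 ± 0.94% and 5.32 ± 0.66%, both lower in KO without overlap. Of the pan-leukocyte sum Unc93b1 was 59.2 ± 14.8% in WT and 34.5 ± 1.7% in KO, and Tlr3 45.6 ± 7.4% and 19.1 ± 4.7%, also lower in KO without overlap. On the macrophage sum both overlapped, with Unc93b1 at 8.0 ± 0.8% in WT and 9.2 ± 0.5% in KO, and Tlr3 at 6.2 ± 0.6% and 5.0 ± 1.0%.

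At day 5 the shares of Slc15a3 did not overlap between genotypes on either sum. They were 0.664 to 0.755% of the macrophage sum in WT and 0.852 to 1.024% in KO. Tlr7 at day 5 was lower in KO on the macrophage sum (1.405 to 1.715% in WT, 0.7504 to 1.353% in KO). At day 10 the shares of Tlr3 did not overlap on the macrophage sum (0.4085 to 1.743% in WT, 1.81 to 2.145% in KO), and those of Cd180 did not on either sum. Cd180 was 0.357% of the macrophage sum in WT (0.0998 to 0.521%) and 1.04% in KO (0.900 to 1.20%). Tlr9 was 0.295 ± 0.156% and 0.726 ± 0.216%, with overlap. The macrophage sum was 5795 and 9003 CPM in WT day 10 replicates 2 and 3, and its part in these shares was not tested.

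**Figure D5:**
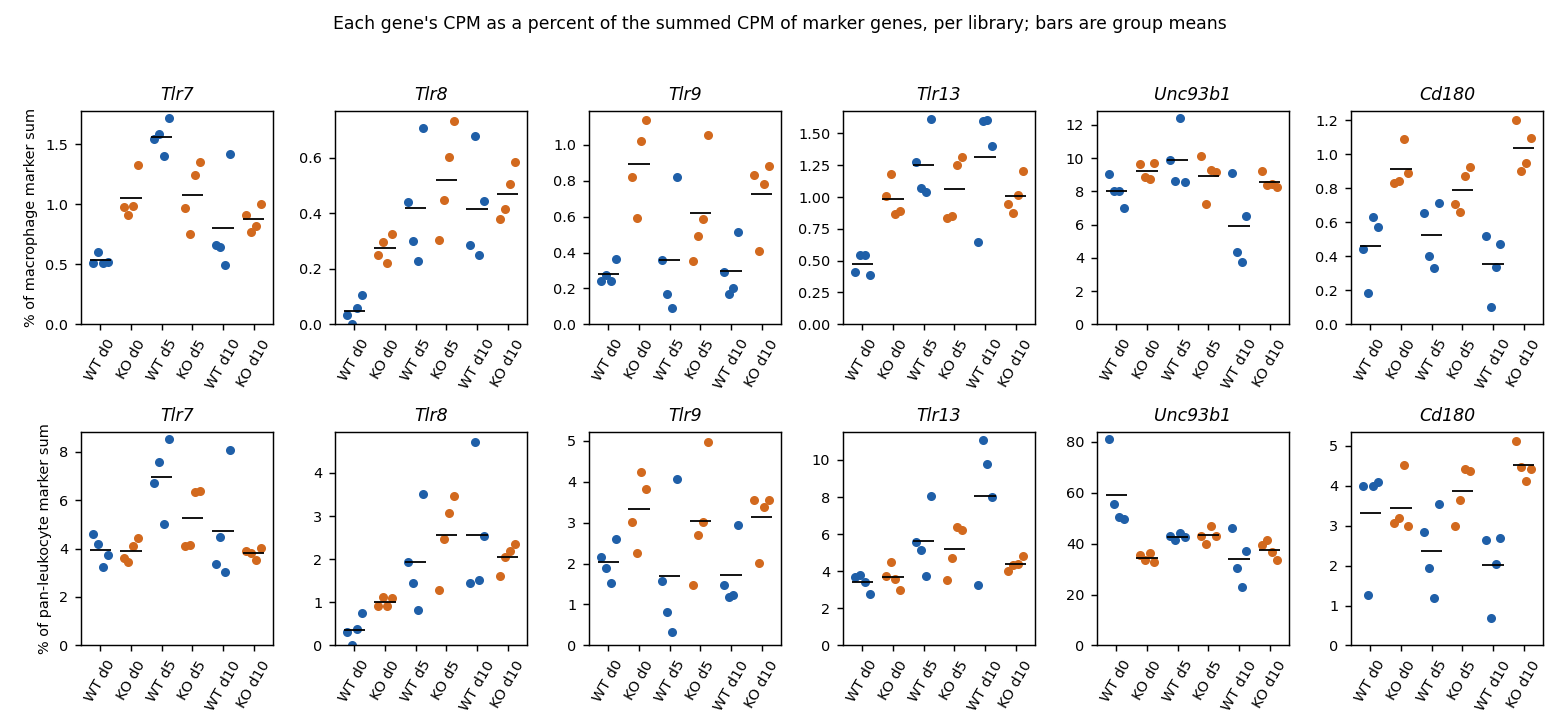
CPM of 6 genes as a percent of the summed CPM of macrophage markers (14 genes, top) and of pan-leukocyte markers (4 genes, bottom) in each library, by group, with WT in blue, KO in orange and bars at the group means. At day 0 the mean Tlr7 share is 1.05% in KO against 0.539% in WT in the top row, and 3.91% against 3.94% in the bottom row. The macrophage sum includes Csf1r, at a mean of 127 CPM in KO and 120 CPM in WT at day 0.

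The rest of the pathway was read from lists of genes with known roles. Over all genes 3.65% were called higher in KO at day 0, the share to set beside the counts that follow. At day 0, 2 of 9 surface toll-like receptor genes were higher in KO: Tlr1 (log2 difference 1.86 ± 0.45, adjusted p = 0.0182) and Ly86, the partner of Cd180 (1.56 ± 0.28, adjusted p = 0.00234). Of 12 trafficking and processing genes 1 was higher, Ctss (2.18 ± 0.40, adjusted p = 0.00278), a lysosomal protease that can cleave the receptors into their active form. The transporter Slc15a4, a relative of Slc15a3, differed by -0.07 ± 0.13 (adjusted p = 0.866). Of 7 tested nuclease genes 1 was higher, the extracellular DNase Dnase1l3 (2.86 ± 0.59, adjusted p = 0.00584), and Pld3, the other endolysosomal exonuclease of the family, differed by -0.01 ± 0.12.

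Of 23 signalling genes 2 were higher at day 0, the interferon regulatory factors Irf7 (2.37 ± 0.38, adjusted p = 0.000953) and Irf8 (0.98 ± 0.24, adjusted p = 0.022), while Ticam1, the adaptor of Tlr3, differed by -0.00 ± 0.16. The RNA and DNA sensors of the cytosol had 4 of 8 higher: Ddx58 (RIG-I), Ifih1 (MDA5), Dhx58 and Zbp1, at 0.91 to 2.79. Of 7 tested cytokine targets 3 were higher, Il12b (3.72 ± 0.53), Ccl5 (3.81 ± 0.74) and Cxcl10 (3.23 ± 0.72). None of these lists had a gene lower in KO at day 0, where 0.531% of all genes were called lower and 3.65% higher. The other 2 endosomal toll-like receptor genes, Tlr11 and Tlr12, did not pass.

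Under obstruction 7 of 9 surface genes were higher in WT at day 5 and 9 of 9 at day 10 (7 of 9 without WT day 10 replicates 2 and 3), and in KO 5 and 7 of 9. Over all genes the shares called higher were 31% and 37.8% in WT and 22.4% and 28.3% in KO. Tlr12, which senses a protein and not a nucleic acid, fell in WT, from 42.4 ± 4.0 CPM in WT day 0 to 13.5 ± 6.9 at day 5 (-1.64 ± 0.38, adjusted p = 0.00115) and 14.2 ± 7.8 at day 10 (-1.58 ± 0.38, adjusted p = 0.000992). In KO it was at 39.4 ± 8.9, 22.5 ± 1.7 and 19.9 ± 4.9 CPM, and passed at day 10 (-0.99 ± 0.37, adjusted p = 0.03) but not at day 5. Among the signalling genes 12 of 23 were higher and 2 lower in WT at day 5, 15 and 3 at day 10 (12 and 2 without WT day 10 replicates 2 and 3), and in KO 9 and 2, then 11 and 2, with Chuk and Irak1 lower each time. The shares of all genes called lower were 25.6% and 30.3% in WT and 17% and 26% in KO.

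By the interaction for the change to day 10, 6 of the 9 surface genes rose less in KO, such as Tlr1 (-2.80 ± 0.58, adjusted p = 0.0102) and Ly86 (-1.76 ± 0.37, adjusted p = 0.011). The coefficient was also negative and passed for Ctss (-3.34 ± 0.56, adjusted p = 0.00797), Pld4 (-1.63 ± 0.39, adjusted p = 0.023), 2 of 23 signalling genes (Ikbke and Nfkbia), 2 of 8 cytosolic sensors (Tmem173, which encodes STING, and Aim2) and 3 of 7 cytokine targets (Tnf, Il1b and Ccl5). No gene of these lists passed in the other direction. Over all genes 3.12% were called lower by this test, and 20 of 15080 higher. In the same test 11 of 14 macrophage markers and 4 of 4 pan-leukocyte markers were lower. Without WT day 10 replicates 2 and 3 the counts were 0 of 9 surface genes, 0 of 23 signalling genes and 0 of 8 cytosolic sensors by the edgeR test (3, 1 and 3 at an unadjusted p under 0.05), 1 of 12 trafficking genes (Ctss) and 1 of 7 cytokine targets (Ccl5), and Pld4 did not pass, while 11 of 14 macrophage and 3 of 4 pan-leukocyte markers were lower.

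The genes whose profile over the 24 libraries was nearest to each member were found by the root mean square difference of centred log2 CPM, among 13041 candidates whose mean log2 CPM was 1 or more. For Tlr8 the nearest were Emr1 (0.56), Ms4a6c (0.57) and Ctss (0.58), and for Tlr13 Vav1, Tgfbi (0.34 each) and Slc11a1 (0.35). For Slc15a3 they were Plek (0.30), Itgb2 (0.30) and Fgr (0.30). For Cd180 they included Grap2 (0.45) and Ciita (0.47), and for Tlr9 Pou2f2 (0.40), Il6ra (0.47) and Slfn9 (0.50). For Tlr7 they were AI607873 (0.30), 5430435G22Rik (0.34) and Tagap (0.35), and for Unc93b1 Tifab (0.19), Rasa3 (0.20) and Apobec3 (0.20). For Tlr3, Myd88 and Irf5 the nearest were Eif2ak2 (0.18), Pola2 (0.15) and Pfkfb4 (0.18). The measure shrinks for genes that vary little, so it is compared within a member and not between members.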

How the data were processed

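Polyadenylated RNA of mouse kidney was sequenced after stranded library preparation, per the labels' protocols. The authors deposited raw counts per gene symbol, and separately a table of FPKM values. Per the submitters' processing notes bcl2fastq 2.16, STAR 2.5, Cufflinks and the mouse build mm9 were used; the counting tool, its strand setting and the annotation are not given in the sources used here. No per-sample column was left unused (0 columns).

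Counts were fitted with edgeR 4.0.16 in R 4.3.3 (quasi-likelihood, robust, TMM scaling, 6 groups in 1 model), on genes passing filterByExpr with a minimum count of 10 and a minimum total of 15. P-values were Benjamini-Hochberg adjusted over all 15080 genes, with a threshold of 0.05, and errors of log2 values are standard errors. CPM uses the TMM-scaled library size. DESeq2 1.42.0 and limma 3.58.1 on log2(FPKM + 1) or log2(FPKM + 0.1) were alternatives, with other filters and scalings, fits of only the groups compared, a replicate block, and libraries left out. The script was tested on simulated data.

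All 10 genes are named. Of a pathway list up to 4 genes with the lowest adjusted p may be named in a comparison. Beside them stands a set of context genes (among them Pld4, Pld3, Slc15a4 and Ticam1). Likeness names genes among the 3 nearest. Some genes are not reported here. Xist, Ddx3y and the promoter motifs were chosen after the data were seen. The single markers Emr1, Csf1r, Ptprc, C1qa, Cx3cr1, Lyz2 and Siglech were likewise named after their values were seen. The 10 genes and the lists were chosen with earlier results of these data known. No 2 libraries of the same group agreed within sampling noise. Replicate numbers are shared between groups, and same-numbered libraries deviated together (all 4 correlations above 0.1) in 2 of 9 comparisons, KO against WT at day 10 and day 10 against day 5 in WT.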

Additional observations from a re-analysis of the deposited data

Results flagged for a closer look

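In 3 of the 60 group ranges (10 genes in 6 groups of 4) 1 library lay far from the other 3, where chance alone gives about 1 in 20. Tlr3 in WT day 5 replicate 2 was low at 22.54 CPM, Irf5 in KO day 0 replicate 4 was low at 19.25 CPM, and Cd180 in WT day 10 replicate 3 was high at 30.24 CPM. The second of these libraries is the one with 11271 counts of Xist, and the third is the one with summed B cell markers of 24.38 CPM. Whether these features bear on the distant values was not tested.

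The response to obstruction differed between KO and WT in 6 tests of the difference itself with edgeR. At day 5 it did for Tlr7 (-1.98 on the log2 scale), where 0.531% of all genes were called lower. That call was lost in 11 of the 16 fits that left out 1 library. At day 10 it did for Tlr7 (-2.65), Tlr8 (-4.21), Tlr13 (-3.75), Unc93b1 (-1.5) and Slc15a3 (-3.4), where 3.12% of all genes were called lower. Without WT day 10 replicates 2 and 3 only Tlr7 and Tlr13 passed at day 10, and with only the groups compared fitted none did. These tests share the day 0 libraries with the comparison of the control kidneys.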

How the results depend on the processing

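Of the 110 log2 values (10 genes in 11 comparisons), 110 kept their direction and side of the threshold without a low-count filter, 109 with RLE scaling, 109 with the replicate block (Irf5 at day 10 against day 5 in WT was lost, 0.67), 108 with a stricter filter (CPM 1 or more in 8 or more libraries), 104 with DESeq2, 97 with log2(FPKM + 0.1), 93 with only the groups compared fitted, 88 with log2(FPKM + 1), 87 with that and no filter, 85 without WT day 10 replicates 2 and 3, and 84 without KO day 0 replicate 4 as well, a setting chosen after seeing the data. The FPKM scale moved the median of all genes by 0.47 to 0.66 in day against day 0 comparisons. For KO against WT at day 0 (5 genes called) the count was 8 with DESeq2, 8 with only the groups compared, 8 in each of the settings without WT day 10 replicates, 2 with log2(FPKM + 1) with or without a filter, and 2 to 5 with 1 library left out. At day 5 (0) it was 1 in both settings without WT day 10 replicates and 0 to 1 with 1 library left out. At day 10 (0) it was 2 with DESeq2 and 0 to 6 with 1 library left out. For day 10 against day 5 in WT (5) it was 2 with log2(FPKM + 1), 1 with log2(FPKM + 0.1), 1 with unfiltered log2(FPKM + 1), 0 with only the groups compared, 0 in both settings without WT day 10 replicates, and 1 to 7 with 1 library left out. For the day 5 difference in response (1) it was 0 with log2(FPKM + 1) with or without a filter, 3 with only the groups compared, 3 in both settings without WT day 10 replicates, and 0 to 1 with 1 library left out. For the day 10 difference (5) it was 0 with log2(FPKM + 1) with or without a filter, 2 with log2(FPKM + 0.1), 0 with only the groups compared, 2 without WT day 10 replicates 2 and 3, 1 without KO day 0 replicate 4 as well, and 3 to 6 with 1 library left out. The cause was not tested.

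Every value whose sign reversed was one that did not pass the threshold in the fit reported. KO against WT at day 5 gave -0.003 for Myd88 and -0.002 for Irf5 with the CPM filter. With log2(FPKM + 1), filtered or not, the difference in response was 0.208 for Tlr8, 0.161 for Tlr9 and 0.107 for Cd180 at day 5, and 0.049 for Cd180 at day 10. Without WT day 10 replicates 2 and 3, KO against WT at day 10 was 0.522 for Tlr8, 0.13 for Tlr13, 0.238 for Unc93b1, 0.199 for Myd88, 0.112 for Irf5 and 0.642 for Slc15a3, day 10 against day 5 in WT was -0.188 for Tlr7 and -0.151 for Myd88, and the day 10 difference for Irf5 was 0.475; without KO day 0 replicate 4 as well they were the same except 0.129 for Tlr13 and 0.422 for the Irf5 difference. With 1 library left out, KO against WT at day 5 ran from -0.044 to 0.219 for Tlr13, -0.046 to 0.083 for Myd88 and -0.078 to 0.076 for Irf5, day 10 against day 5 in KO from -0.234 to 0.062 for Tlr7, -0.115 to 0.309 for Tlr8, -0.017 to 0.287 for Tlr13 and -0.056 to 0.118 for Myd88, and the day 10 difference for Irf5 from -0.31 to 0.146.

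Over all genes the number called moved by more than 1.5 times as follows, with pair meaning WT day 10 replicates 2 and 3, and trio these and KO day 0 replicate 4. KO against WT at day 0 (630) gave 975 with DESeq2, 359 and unfiltered 301 with log2(FPKM + 1), 1507 with only the groups compared, 1274 without the pair and 952 without the trio. At day 5 (22) it gave 87 with DESeq2, 41 to 58 on the FPKM scale, 116 without the pair and 126 without the trio. At day 10 (212) it gave 473 with DESeq2, 25 to 58 on the FPKM scale, 0 with only the groups compared, 19 with the replicate block, 69 without the pair and 62 without the trio. Day 5 against day 0 in KO (5951) gave 9216 with unfiltered log2(FPKM + 1). Day 10 against day 5 gave in WT (1628) 862 with unfiltered log2(FPKM + 1) and 0 with only the groups compared, without the pair or without the trio, and in KO (3) 72 with DESeq2 and 5 to 54 in 5 other settings. The difference in response gave at day 5 (85) 265 with DESeq2, 6 and unfiltered 10 with log2(FPKM + 1), 510 with only the groups compared, 645 without the pair and 488 without the trio, and at day 10 (490) 847 with DESeq2, 1 with log2(FPKM + 1), 159 with log2(FPKM + 0.1), 2 with only the groups compared, 153 without the pair and 95 without the trio. With 1 library left out the number called for KO against WT ran from 296 to 702 at day 0. It ran from 9 to 1935 at day 5 and 23 to 2045 at day 10. The 1935 at day 5 came without WT day 5 replicate 4. Day 10 against day 5 then ran from 359 to 4515 in WT and 0 to 12 in KO. The difference in response ran from 27 to 884 at day 5 and 246 to 1808 at day 10. Depth limits Tlr8 in WT controls, with 7 counts over 4 libraries.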
